A study of Mus musculus with 12 samples.

Results

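The genes described here were Mtor, Rptor, Tsc2, Tfeb, Tfe3, Mitf, Flcn, Fnip1, Rragc and Rragd, which encode parts of the switch between the kinase mTORC1 and the transcription factors that control lysosome genes. The rule that selects them uses their names and no measured value, though the genes were chosen with earlier results of these data known. All 10 were found among the 15344 genes of the tables. Quadriceps RNA-Seq was analysed from 12 mice of the C57BL/6 strain at 6 months of age, 4 in each of 3 groups. The WT group was untreated. The other groups carried the GAA knock-out, and one (KO) was injected with PBS, while the other (AAV) received AAV2/8-LSPhGAApA by tail vein at 2e12 vg/kg. In this vector a liver-specific promoter drives human GAA, so the transgene was aimed at liver and not at the muscle that was sequenced. By the study's methods the treated mice were males injected at 2 months of age. The WT group received neither PBS nor vector, so genotype and injection cannot be told apart between KO and WT, and each library stood for 1 animal.

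Values are normalized counts, that is, reads per gene divided by 1 size factor per library, and between 22122233 and 47379737 reads per library lay behind them. The AAV libraries held 22122233 to 31974197 reads, fewer than most of the others. Gaa itself went against the labels. Its normalized counts were 343, 14640, 324 and 460 in the libraries labelled WT, 12151 to 13075 in those labelled KO, and 947, 587, 500 and 9854 in those labelled AAV. In Gaa, WT animal 2 and AAV animal 4 thus stood nearer the libraries labelled KO. In Mtor and Mitf, the members whose libraries labelled KO lay above all others, both of these animals lay below the KO range. By the study's methods, GAA activity and glycogen were assayed on other pieces of the same muscles. Those assays are separate evidence on the labels and were not analysed here, and which part of Gaa these reads cover was not tested. All directions below are between libraries labelled KO, WT and AAV, and each rests on those labels. Myofibre markers summed to between 3067107 and 5261583 normalized counts per library, so the markers that define skeletal muscle were abundant in all 12.

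mTORC1 is a kinase complex that is recruited to the lysosome surface when amino acids are plentiful and promotes protein synthesis and growth. Mtor encodes its catalytic subunit and Rptor the scaffold raptor that binds substrates. Tsc2 encodes tuberin, which with hamartin switches off Rheb, the small GTPase that activates mTORC1. The Rag GTPases, among them RagC and RagD (Rragc and Rragd), dock mTORC1 at the lysosome, and folliculin (Flcn) with its partner Fnip1 promotes the GDP-bound state of RagC and RagD. In that state they present TFEB and TFE3 to mTORC1, and the phosphorylated factors stay in the cytoplasm. When the factors reach the nucleus they raise transcription of lysosome and autophagy genes. Mitf encodes another factor of the same MiT family. In Pompe disease, loss of acid alpha-glucosidase leaves glycogen in muscle lysosomes, which is why this switch has been studied in the disease. These data measure RNA and hold no information on phosphorylation or on the location of the proteins.

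Per kb of exon, Rragd was the most abundant of the genes, with 1843 ± 502 normalized counts per kb (SD, n = 4) in the libraries labelled WT. Tfeb followed at 627 ± 88.8 and Flcn at 394 ± 52.4, on the same scale and in the same libraries. Tfe3 was the lowest, at 46.7 ± 8.67 per kb. The order of the medians over all 12 libraries was Rragd, Tfeb, Flcn, Rragc, Tsc2, Fnip1, Mtor, Rptor, Mitf and Tfe3. Each of the first 4 lay above the next gene in 12 of 12 libraries. Tsc2 lay above Fnip1 in 8 libraries and Mitf above Tfe3 in 8, so these neighbours were not ordered beyond the spread between animals. Rragd stood at percentile 96.5 of 15186 genes by level per kb, Tfeb at 89.9 and Tfe3 at 45.8. No library gave fewer than 244 reads for any of the genes, so none was limited by sparse counts.

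Between the libraries labelled KO and WT, Mitf rose and the other 9 genes did not pass an adjusted p of 0.05 (limma on log2(normalized count + 1), Benjamini-Hochberg over 14859 genes). Of all genes tested, 27.6% passed in either direction, 12.3% were called higher and 15.3% lower, so 1 of 10 called higher was near the background. Without WT animal 3, limma called 5 of the 10 (Mtor, Tsc2, Tfe3, Mitf and Fnip1) and 7163 genes in all, in place of 4097. Between the libraries labelled AAV and KO, Mtor, Tsc2, Rragd and Mitf fell. This was 4 of 10 genes, where 26.3% of 14894 genes were called in either direction and 13.4% were called lower. By limma no member reached a log2 fold change of 1 with its call in any comparison, where 13.9% of all genes did so between KO and WT, 8.98% between AAV and KO and 0.951% between AAV and WT. The median log2 fold change over the 10 genes was 0.16 for KO against WT and -0.23 for AAV against KO, against 0.02 and 0.04 over all genes tested. Both comparisons share the 4 libraries labelled KO, so a gene that was high in them was placed higher in the first and lower in the second by the same values. With libraries scaled to their total reads, and not by size factors, the median of all genes between AAV and KO went from 0.04 to 0.20 on the log2 scale.

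**Figure D1:**
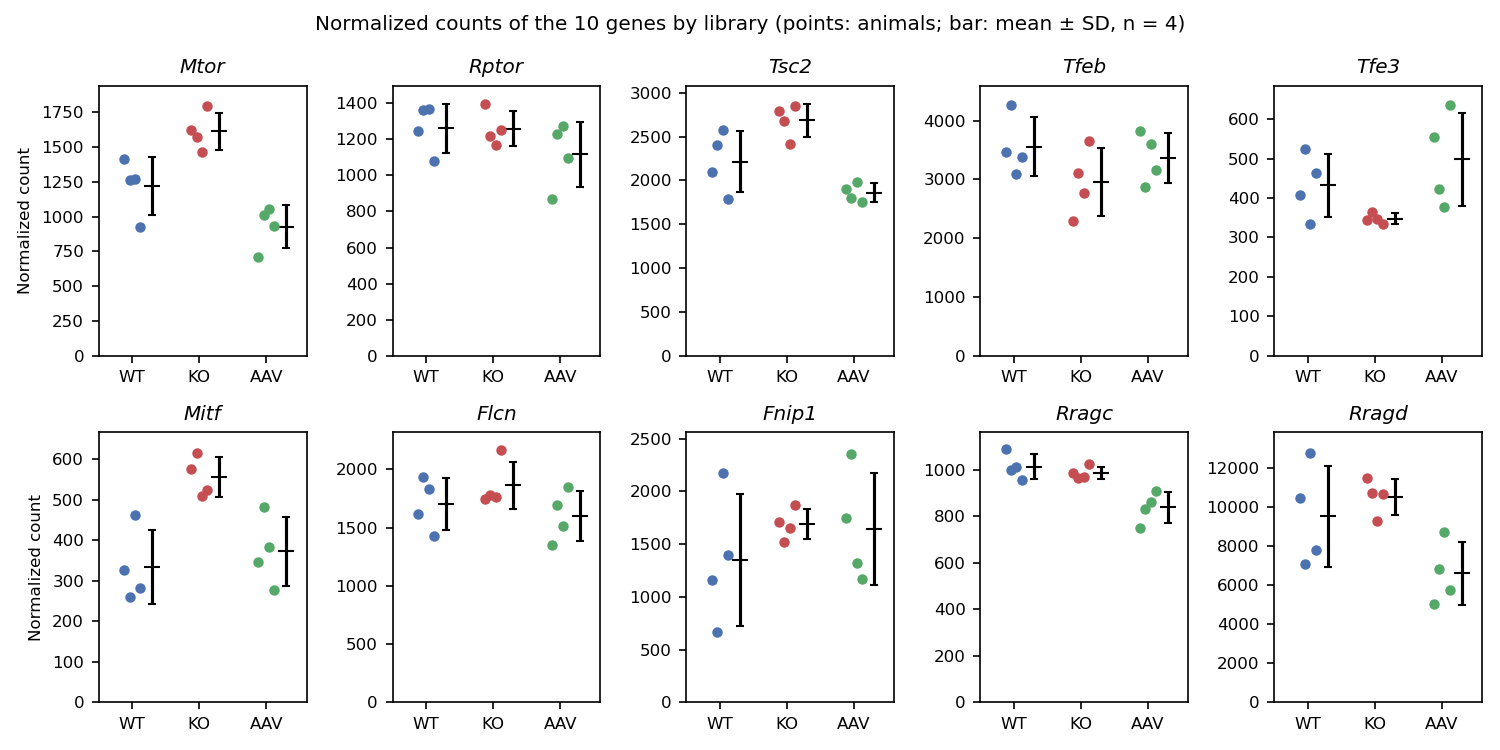
Normalized count of each of the 10 genes (vertical axis, from 0) in the 12 libraries, grouped by label; points are animals and black bars are the mean ± SD (n = 4). In the panels of Mtor, Tsc2, Mitf, Rragc and Rragd the libraries labelled AAV all sit below those labelled KO, in that of Tfe3 they all sit above them, and in those of Mtor and Mitf the libraries labelled KO also sit above those labelled WT.

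Mtor (ENSMUSG00000028991, chr4:148448611-148557683 on GRCm38, + strand) was read at 1415, 1259, 1273 and 927 normalized counts in WT animals 1 to 4, at 1617, 1571, 1466 and 1790 in KO animals 1 to 4, and at 711, 1011, 1055 and 935 in AAV animals 1 to 4. Every library labelled KO lay above all 8 others, and WT and AAV overlapped. From KO to AAV the mean fell by 42.4%, from 1611 ± 135 to 928 ± 153 (SD, n = 4 each). The log2 fold change was -0.81 (SE 0.14, adjusted p = 0.00561 by limma), the largest fall of the 10 genes, and all 18 alternative settings kept the call. Between KO and WT it was 0.42 (95% confidence interval 0.09 to 0.74, adjusted p = 0.0584 by limma), which missed the threshold. DESeq2 on the recovered reads and the fit without WT animal 3 gave an adjusted p of 0.047 and 0.0316 there, in a range of 0.0316 to 0.145 over the 18 alternatives.

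Rptor (ENSMUSG00000025583, chr11:119602905-119899576, + strand) lies 317 kb from Gaa on the same chromosome. Its normalized counts ran from 1077 to 1364 in the libraries labelled WT, from 1169 to 1392 in those labelled KO and from 868.3 to 1272 in those labelled AAV, so all groups overlapped. The log2 fold change between KO and WT was close to 0, with a 95% confidence interval of -0.27 to 0.27 (adjusted p = 0.996, limma). Between AAV and KO it was -0.19, with an interval of -0.49 to 0.11 (adjusted p = 0.318, limma). The ratio of Mtor to Rptor per kb, taken within each library and so free of library scaling, was 1.15 to 1.52 in WT, 1.55 to 1.91 in KO and 1.09 to 1.14 in AAV. The 3 groups did not overlap in this ratio. It was looked at after the values of both genes were known and was not tested.

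Tsc2 (ENSMUSG00000002496, chr17:24595816-24632630, - strand) shares 693 bases of exon, 7.20% of its length, with Pkd1 on the opposite strand, and reads there may belong to either gene. Normalized counts came to 2091, 2405, 2576 and 1790 in WT animals 1 to 4, 2793, 2678, 2418 and 2844 in KO animals, and 1907, 1800, 1986 and 1749 in AAV animals. The libraries labelled AAV were all below those labelled KO, and those labelled WT spanned the gap between them. From KO to AAV the mean fell by 30.7% (log2 fold change -0.53, SE 0.098, adjusted p = 0.0072 by limma), in all 18 alternatives. Between KO and WT the log2 fold change was 0.29 (95% confidence interval -0.01 to 0.59, adjusted p = 0.133 by limma), and without WT animal 3 it passed (0.36, adjusted p = 0.0315, in a range of 0.0315 to 0.304). Within libraries, the ratio of Tsc2 to Rptor per kb was 2.33 to 2.64 in WT and 2.81 to 3.18 in KO. In AAV it was 2.05 to 2.24 in 3 animals and 3.08 in AAV animal 1, whose Rptor count was the lowest of all 12.

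Rragd (ENSMUSG00000028278, chr4:32983037-33022180, + strand) was read at 10448, 7104, 12779 and 7812 normalized counts in WT animals 1 to 4, at 11496, 10742, 9284 and 10656 in KO animals 1 to 4, and at 5058, 6859, 8725 and 5778 in AAV animals 1 to 4. The libraries labelled WT spread over a wider range than either other group and overlapped both, while KO and AAV did not overlap. From KO to AAV the mean fell by 37.4%, from 10545 ± 921 to 6605 ± 1596 (SD, n = 4 each), with a log2 fold change of -0.70 (SE 0.17, adjusted p = 0.0161 by limma). It kept its call in all 18 alternatives, with an adjusted p of up to 0.0495. Between KO and WT the log2 fold change was 0.18 (95% confidence interval -0.23 to 0.59, adjusted p = 0.482 by limma).

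Rragc (ENSMUSG00000028646, chr4:123917446-123936997, + strand), which encodes the paralogous GTPase, had the lowest coefficient of variation of the 10 genes in WT (5.40%) and in KO (2.78%). It was read at 1089, 998, 1011 and 958 normalized counts in WT animals 1 to 4, at 986, 964, 970 and 1025 in KO animals and at 750, 834, 861 and 910 in AAV animals. All 4 libraries labelled AAV were below the other 8. The differences did not pass the adjusted threshold, with a log2 fold change of -0.24 from KO to AAV (adjusted p = 0.102, limma) and of -0.28 from WT to AAV (adjusted p = 0.281, limma). The exact two-sided permutation test gave p = 0.0286 for each, the smallest that 4 against 4 libraries allow. Scaled to total reads, the count of members whose groups were apart dropped from 6 to 3 between AAV and KO and from 1 to 0 between AAV and WT. The share of exon that Rragc has in common with 4930535I16Rik on the opposite strand is 7.90%.

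Flcn (ENSMUSG00000032633, chr11:59791408-59810016, - strand) gave normalized counts of 1430 to 1935 in the libraries labelled WT, 1744 to 2165 in those labelled KO and 1351 to 1845 in those labelled AAV. In the KO group 3 animals lay between 1744 and 1784, with KO animal 4 above them at 2165. No comparison passed the threshold, with log2 fold changes of 0.13 for KO against WT (95% confidence interval -0.16 to 0.43, adjusted p = 0.466, limma) and -0.22 for AAV against KO (-0.50 to 0.06, adjusted p = 0.206, limma).

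Fnip1 (ENSMUSG00000035992, chr11:54438199-54518235, + strand) was read at 1161, 665, 2175 and 1401 normalized counts in WT animals 1 to 4, at 1714, 1526, 1651 and 1871 in KO animals and at 1745, 2353, 1319 and 1166 in AAV animals. Its coefficient of variation was 46.6% in WT, 8.49% in KO and 32.3% in AAV, the widest of the 10 genes in WT and in AAV. Fnip1 had a log2 fold change of 0.44 for KO against WT (95% confidence interval -0.21 to 1.10, adjusted p = 0.271, limma) and -0.09 for AAV against KO (-0.53 to 0.35, adjusted p = 0.756, limma). The first rested on single animals, at 0.71 without WT animal 3 (adjusted p = 0.0202, limma, in a range of 0.0202 to 0.629 over the 18 alternatives) and 0.15 without WT animal 2. In WT, animal 2 had the lowest and animal 3 the highest normalized count of Fnip1, and the same was true of Rragd and of Mitf. A narrow KO group was not particular to these genes. The coefficient of variation was lowest in the libraries labelled KO for 8 of the 10 genes and for 66.8% of 13643 genes whose mean was 10 or more.

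Tfeb (ENSMUSG00000023990, chr17:47737030-47792419, + strand) was read at 3472, 4269, 3093 and 3379 normalized counts in WT animals 1 to 4, at 2295, 3114, 2762 and 3658 in KO animals and at 3815, 2862, 3599 and 3166 in AAV animals. All groups overlapped. Its log2 fold change was -0.28 for KO against WT (95% confidence interval -0.64 to 0.09, adjusted p = 0.221, limma) and 0.20 for AAV against KO (-0.15 to 0.54, adjusted p = 0.358, limma). Per kb of all annotated exons, Tfeb made up most of the MiT factor transcripts in every library, from 75.7% to 88.5% of the sum of Tfeb, Tfe3 and Mitf. These shares depend on the exon lengths used.

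Tfe3 (ENSMUSG00000000134, chrX:7762560-7775202, + strand) was read at 408, 523, 334 and 463 normalized counts in WT animals 1 to 4, at 345, 365, 347 and 333 in KO animals and at 554, 424, 377 and 636 in AAV animals. The libraries labelled AAV were all above those labelled KO, which lay close together. The difference, a log2 fold change of 0.49 (SE 0.17, adjusted p = 0.0546, limma), missed the threshold, and the exact permutation test gave p = 0.0286. It passed in 4 of the 18 alternatives, among them DESeq2 and edgeR on the recovered reads, with adjusted p from 0.0153 to 0.131 over the 18. Between KO and WT it was -0.29 (95% confidence interval -0.64 to 0.05, adjusted p = 0.170, limma), and without WT animal 3 it passed (-0.41, adjusted p = 0.0209, in a range of 0.0209 to 0.343).

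Mitf (ENSMUSG00000035158, chr6:97807052-98021349, + strand) was read at 327, 259, 463 and 283 normalized counts in WT animals 1 to 4, at 575, 616, 509 and 524 in KO animals and at 347, 483, 384 and 278 in AAV animals. All 4 libraries labelled KO lay above the 8 others. The mean was 333 ± 91.3 in WT, 556 ± 48.8 in KO and 373 ± 85.5 in AAV (SD, n = 4 each). From WT to KO it rose 1.67-fold, with a log2 fold change of 0.77 (SE 0.18, adjusted p = 0.0148, limma), and all 18 alternatives kept the call. From KO to AAV it fell by 32.9%, with a log2 fold change of -0.60 (SE 0.17, adjusted p = 0.0276, limma). That call held in 11 of 18 alternatives and was lost on scaling to total reads (-0.43, adjusted p = 0.0608, limma), in a range of 0.0079 to 0.0783. Mitf made up 4.92% to 11.4% of the MiT factor transcripts per kb in WT, 11% to 17.3% in KO and 6.68% to 12.4% in AAV. The ratio of Mitf to Tfe3 per kb was 2.19 to 2.52 in the libraries labelled KO, above 0.741 to 2.07 in WT and 0.654 to 1.70 in AAV. This ratio sets a gene whose mean was highest in KO over one whose mean was lowest there, and it was not tested.

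**Figure D2:**
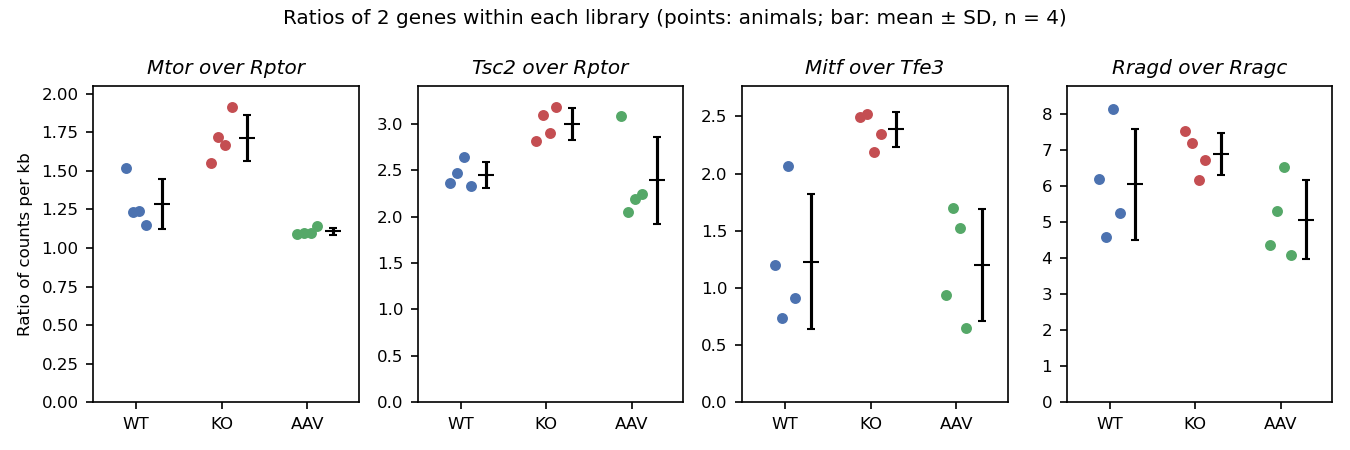
Ratios of normalized counts per kb of exon between 2 genes of the same library (vertical axes, from 0), by labelled group; points are animals and black bars the mean ± SD (n = 4). The libraries labelled KO lie apart from and above both other groups for Mtor over Rptor (1.55 to 1.91) and for Mitf over Tfe3 (2.19 to 2.52), while the groups overlap for Rragd over Rragc. The ratios were not tested.

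Mitf is also known from melanocytes, macrophages and other cells, and in bulk muscle fewer cells of a type and less RNA per cell cannot be told apart. Of 5 melanocyte markers 1 was found, Dct, at 0 to 13.1 normalized counts in the 12 libraries and at 0 in KO animals 3 and 4. The 6 macrophage markers summed to 474 to 1427 in WT, 291 to 622 in KO and 308 to 1328 in AAV, and 2 of the 6 were called lower in KO than in WT. Endothelial markers summed to 1564 to 4522 in WT, 4105 to 5163 in KO and 2982 to 5238 in AAV, with 3 of 5 called higher in KO than in WT and 1 of 5 called lower in AAV than in KO. Markers of slow fibres had the largest median log2 fold changes of the 11 marker lists, -3.48 for KO against WT and 5.23 for AAV against KO. All 7 were called lower in KO than in WT and 6 of 7 higher in AAV than in KO, with sums of 3396 to 6630 in WT, 1112 to 1297 in KO and 2934 to 24410 in AAV. Of all genes tested, 12.3% were called higher and 15.3% lower between KO and WT, and 12.8% higher and 13.4% lower between AAV and KO. The part of macrophage, endothelial and slow fibre content in the values of Mtor, Tsc2, Rragd and Mitf was not tested.

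Groups did not overlap for 2 of the 10 genes between KO and WT (Mtor and Mitf, both higher in KO), where this held for 28.3% of all genes tested. Between AAV and KO they did not overlap for 6, namely Tfe3, higher in AAV, and Mtor, Tsc2, Mitf, Rragc and Rragd, lower in AAV, against 30.6% of all genes. Between AAV and WT only Rragc was apart, against 11.7% of all genes. In the last comparison limma called none of the 10 genes, with 1.29% of 14939 genes called. Rragd alone had an unadjusted p under 0.05 there (log2 fold change -0.52, 95% confidence interval -1.04 to -0.004, adjusted p = 0.273, limma), and DESeq2 and edgeR called none of the 10 either. The log2 fold change of Mtor from WT to AAV was -0.39 (95% confidence interval -0.80 to 0.01, adjusted p = 0.289, limma), and that of Mitf was 0.17 (-0.34 to 0.69, adjusted p = 0.718, limma). The median over the 10 genes was -0.14, against -0.03 over all genes.

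**Figure D3:**
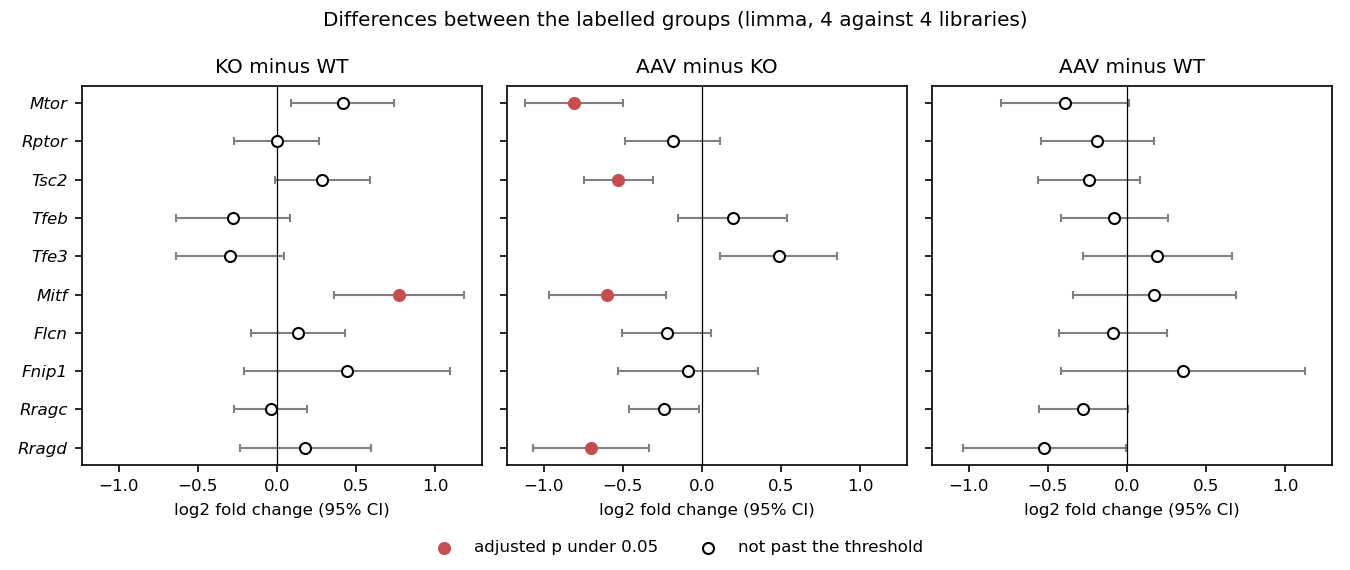
Log2 fold change with its 95% confidence interval (horizontal axis) of the 10 genes in the 3 comparisons, from limma on 4 against 4 libraries; filled points passed an adjusted p of 0.05 over all genes tested. Mitf is the one filled point for KO minus WT, Mtor, Tsc2, Mitf and Rragd are filled on the lower side for AAV minus KO, and none is filled for AAV minus WT.

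TFEB, TFE3 and MITF bind E-box elements, of which the sequence CACGTG is the common core. The RefSeq promoter windows of the 10 genes on GRCm38.p6, 15 windows from 250 bases before to 50 bases after a start, were searched for this core to show which genes carry it near the start. It was found in 2 of the 15 windows, those of Rragc and Fnip1, and in 7.15% of 32851 windows of the same length over all genes. The longer palindrome TCACGTGA was in none of the 15 and in 0.974% of all windows, and CATGTG, searched on both strands, was in none of the 15 and in 14.2% of all windows. Below are the bases from 150 to 51 before the start of both genes with a match and of Mtor and Rragd, which fell most from KO to AAV, all on the + strand and with the core in capitals.
Rragc, chr4:123917283-123917382: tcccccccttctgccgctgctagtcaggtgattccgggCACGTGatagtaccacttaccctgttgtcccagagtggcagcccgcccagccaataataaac
Fnip1, chr11:54438029-54438128: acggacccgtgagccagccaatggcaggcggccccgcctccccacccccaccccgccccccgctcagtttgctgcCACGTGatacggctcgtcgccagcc
Mtor, chr4:148448432-148448531: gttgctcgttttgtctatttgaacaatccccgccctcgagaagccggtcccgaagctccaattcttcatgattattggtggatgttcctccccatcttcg
Rragd, chr4:32982848-32982947: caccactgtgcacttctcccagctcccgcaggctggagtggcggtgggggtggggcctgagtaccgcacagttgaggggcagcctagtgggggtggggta
The core began 112 bases before the start of Rragc and 75 bases before that of Fnip1. Neither of these genes passed the threshold in any comparison, and the members that did had no match in these windows. A match describes letters only, and elements outside the windows were not searched.

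The other genes of the pathway were taken from 9 lists of 75 genes, of which 73 were found. Between the libraries labelled KO and WT, 14 of the 73 rose and 13 fell, with a median log2 fold change of 0.01. Over all genes tested the shares were 12.3% higher and 15.3% lower. Between AAV and KO, 6 rose and 16 fell, beside 12.8% higher and 13.4% lower over all genes, with a median of -0.07, and these comparisons again share the libraries labelled KO. Without WT animal 3 the calls between KO and WT came to 44, and without WT animal 4 to 12, so these counts lean on single animals. The calls over all genes moved the same way, from 4097 to 7163 and to 2353, so this was not particular to the lists.

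In mTORC1 itself, Deptor, which encodes an inhibitory subunit of mTOR complexes, was the gene of these lists with the lowest adjusted p. Its normalized counts were 1936, 1323, 2186 and 1728 in WT animals 1 to 4, 5771, 5151, 6776 and 6384 in KO animals, and 1850, 1543, 2259 and 1499 in AAV animals. The KO group lay far above both others, which overlapped. Deptor had a log2 fold change of 1.76 for KO against WT (SE 0.17, adjusted p = 2.51e-04, limma) and -1.76 for AAV against KO (SE 0.15, adjusted p = 1.62e-04, limma). Akt1s1, which encodes the inhibitory subunit PRAS40, fell from WT to KO (-0.91, adjusted p = 0.0213, limma), in 14 of 18 alternatives. Of the 4 subunits listed for mTORC2, the sister complex that shares Mtor, Rictor rose from WT to KO (1.46, adjusted p = 0.00462, limma) and fell from KO to AAV (-0.98, adjusted p = 0.0149, limma), and the other 3 passed in neither.

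Tsc1, which encodes hamartin, the partner of tuberin, rose from WT to KO by 0.59 on the log2 scale (adjusted p = 0.0446, limma, kept in 8 of 18 alternatives). From KO to AAV its log2 fold change was -0.69 (adjusted p = 0.00824, limma, kept in 18). Tbc1d7, another subunit of that complex, fell from KO to AAV (-0.48, adjusted p = 0.0417, limma), in 7 of 18 alternatives. Among 11 subunits of GATOR and KICSTOR, the complexes that relay amino acid and starvation signals to the Rag GTPases, 4 rose from WT to KO, where 12.3% of all genes did, and 3 fell and 1 rose from KO to AAV, beside 13.4% and 12.8% of all genes. Itfg2 had log2 fold changes of 1.30 and -0.84 in these comparisons (adjusted p = 7.65e-04 and 0.00716, limma) and Mios of 0.76 and -1.04 (adjusted p = 0.0207 and 0.00479, limma), the first of which held in 13 of 18 alternatives.

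Among the 9 Rag, Ragulator and folliculin partners, 2 fell from WT to KO, and 3 rose and 1 fell from KO to AAV. Over all genes 15.3% fell in the first comparison, and 12.8% rose and 13.4% fell in the second. Lamtor4, a subunit of the Ragulator complex that anchors the Rag GTPases, fell from WT to KO (-0.64, adjusted p = 0.0382, limma, in 8 of 18 alternatives) and rose from KO to AAV (0.57, adjusted p = 0.00879, limma), and Lamtor1 also fell from WT to KO (-0.63, adjusted p = 0.0183, limma, in 16 of 18 alternatives). Lamtor2 rose from KO to AAV (0.44, adjusted p = 0.0149, limma). Lamtor3 and Lamtor5 passed in neither comparison. Fnip2, the paralogue of Fnip1, had log2 fold changes of -0.53 for KO against WT (adjusted p = 0.083, limma) and 0.83 for AAV against KO (adjusted p = 0.0262, limma, in 13 of 18 alternatives). Rraga, which encodes a partner of RagC and RagD in the Rag heterodimer, fell from KO to AAV (-0.51, adjusted p = 0.0337, limma), in 8 of 18 alternatives.

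**Figure D4:**
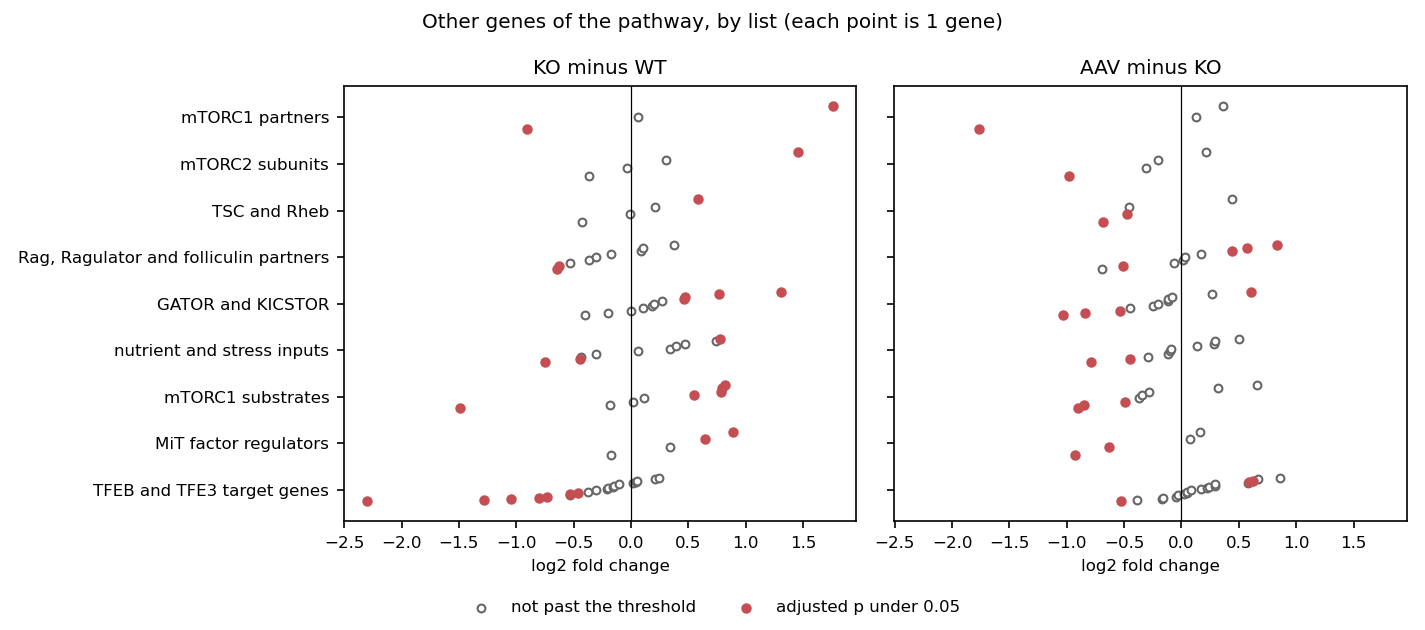
Log2 fold change (horizontal axis) of the other 73 genes of the pathway in 2 comparisons, 1 row per list and 1 point per gene, with points past an adjusted p of 0.05 filled. The filled points of the TFEB and TFE3 target genes all lie below 0 for KO minus WT, and those of the mTORC1 partners and mTORC2 subunits that lie furthest out are Deptor and Rictor.

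Of 8 genes for mTORC1 substrates, 4 rose and 1 fell from WT to KO, beside shares of 12.3% and 15.3% over all genes. The 4 were Rps6kb1, Grb10 and Lpin1, each called in 18 of 18 alternatives, and Ulk1. From KO to AAV 3 of the 8 fell and 0 rose, beside 13.4% and 12.8% of all genes. Eif4ebp1, which encodes the translation repressor 4E-BP1, fell (-1.49, SE 0.32, adjusted p = 0.00924, limma), with normalized counts of 1095 to 3645 in WT and 595 to 917 in KO. Ulk1, which encodes the kinase that starts autophagy, rose from WT to KO (0.79, adjusted p = 0.0412, limma, in 8 of 18 alternatives) and fell from KO to AAV (-0.85, adjusted p = 0.00906, limma). Of 4 regulators of the MiT factors, 2 rose from WT to KO and 2 fell from KO to AAV, beside 12.3% and 13.4% of all genes. Both times these were Ppp3r1 and Ppp3cb, subunits of calcineurin, a phosphatase that acts on TFEB. Ppp3r1 had log2 fold changes of 0.65 and -0.63 (adjusted p = 0.0209 and 0.013, limma). Those of Ppp3cb were 0.89 and -0.92 (adjusted p = 0.0415 and 0.0153, limma). Between KO and WT the call of Ppp3r1 held in 15 of 18 alternatives and that of Ppp3cb in 7. Ppp3ca, also a calcineurin subunit, passed in neither comparison. The single call between AAV and WT in these lists was Castor1, the arginine sensor, listed in the tables as Gatsl3, with 34.1 to 43.6 normalized counts in WT and 82.7 to 114 in AAV (1.28, adjusted p = 0.0284, limma, in 10 of 18 alternatives). Castor1 also lay higher in KO than in WT (0.78, adjusted p = 0.0366, limma, in 9 of 18 alternatives).

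Of 20 genes described as TFEB and TFE3 targets, 7 fell from WT to KO, where 15.3% of all genes did, and 13 did not pass, with a median log2 fold change of -0.26 over the 20. The 7 were Lamp1, Ctsa, Ctsb, Hexa, Atp6v0d1, Atp6v1h and Gpnmb, of which Lamp1 held in 15 and Atp6v0d1 in 10 of 18 alternatives. Ctsb, which encodes the lysosomal protease cathepsin B, was read at 18468, 19153, 10781 and 17655 normalized counts in WT animals 1 to 4, against 7335 to 8371 in KO and 9651 to 16009 in AAV. The 3 groups followed the order WT, AAV, KO in their means, and the log2 fold change from WT to KO was -1.05 (SE 0.18, adjusted p = 0.0043, limma) and from KO to AAV 0.59 (SE 0.15, adjusted p = 0.0231, limma, in 13 of 18 alternatives). Hexa, a subunit of beta-hexosaminidase, fell from WT to KO (-1.28, SE 0.25, adjusted p = 0.00673, limma). Gpnmb, a glycoprotein also made by macrophages, fell by 2.30 on the log2 scale (SE 0.69, adjusted p = 0.0345, limma, in 9 of 18 alternatives), with 340, 356, 41.4 and 523 normalized counts in WT animals 1 to 4 and 23.9 to 62.0 in KO. The macrophage marker sums were given above, and their part in the values of Gpnmb, Hexa and Ctsb was not tested. From KO to AAV, Ctsa and Ctsb rose and Uvrag fell (in 8 of 18 alternatives), and 17 of the 20 did not pass, where 12.8% of all genes rose and 13.4% fell. The E-box core CACGTG was in the promoter windows of 5 of the 15 target genes that had a window in the RefSeq set, against 8.09% of 27025 genes. Whether these genes were first described as targets through this element was not checked, so no conclusion is drawn from the share.

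The genes whose pattern over the 12 libraries was most like that of Mtor, the member with the lowest p, were Uhrf1bp1, Lrrc59 and Rabgef1. The root mean square difference of their centred log2 values from those of Mtor was 0.1001, 0.101 and 0.1053, among 9743 genes whose mean was 100 or more and whose median difference was 0.481. Uhrf1bp1 had means of 1034, 1460 and 834 normalized counts in the libraries labelled WT, KO and AAV.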

How the data were processed

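RNA-Seq of mouse quadriceps was analysed from 12 animals, 4 per group, with groups taken from the sample labels. For the deposited signal values (normalized counts) the authors trimmed reads with Trim Galore 0.4.1, aligned them with STAR, counted uniquely mapped reads per gene with HTSeq 0.6.1 and divided each library by 1 DESeq2 1.16.1 size factor. The authors' fold changes and p-values in the same tables were not used. Whole reads could be recovered for 100% of values in all 12 libraries, within a tolerance of 0.01. The libraries labelled KO had identical values in both tables, which allowed AAV to be compared with WT on one scale. All columns of per-sample values were used.

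Groups were compared with limma 3.58.1 (R 4.3.3), with a trend, on log2(value + 1), keeping a gene if 1 or more of the 8 libraries reached 10. P-values were adjusted by Benjamini-Hochberg over all genes kept. This pseudocount of 1 understates the fold change of low genes. A call is an adjusted p under 0.05. For single genes an exact permutation test (two-sided) was added, in which 4 against 4 libraries can give p = 0.0286 at the least. Alternatives were DESeq2 1.42.0 and edgeR 4.0.16 on the recovered reads, scaling to total reads, a pseudocount of 0.1, other filters, the replicate number as a block, all 12 libraries in 1 fit and leaving out animals. On data simulated for each comparison, limma recovered 76%, 75.5% and 70% of 200 genes changed by a log2 fold of 1, among 15095 genes for KO against WT, 14984 for AAV against KO and 15107 for AAV against WT. The simulation gave all genes the same dispersion, put in no outlying animal and left low genes unchanged. The 10 genes differ in spread and changed by less than a log2 fold of 1, so these shares do not give the power for them.

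The 10 genes and the lists were chosen with earlier results of these data known. Genes named beside them were, for each list, those past an adjusted p of 0.05 and a log2 fold change of 1 in any comparison, or else the 2 with the lowest p, and the 3 genes with the pattern most like the member with the lowest p. Akt1s1, Lamtor1, Fnip2, Rraga, Ulk1, Rps6kb1, Grb10, Lpin1, Ppp3ca and the remaining called target genes were named with their values in view. A replicate number denotes a different animal in each group. Coordinates are from GENCODE M21 and promoter windows from RefSeq on GRCm38.p6, and Python was 3.11.15. The labels say that the animals were separate mice only by number, so p-values measure the spread between these libraries. The number of reads limits precision through counting error, which is small at these levels.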

Additional observations from a re-analysis of the deposited data

Results flagged for a closer look

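Among 33 groups of 4 libraries tested for a sample far from the others (Dixon's ratio above its 95% critical value, which chance passes in about 1 group in 20), 3 stood out. Flcn in KO animal 4 had a normalized count of 2165, while the other libraries labelled KO lay between 1744 and 1784 (ratio 0.905). Gaa in WT animal 2 was at 14640, with the other libraries labelled WT between 324 and 460 (ratio 0.99). Gaa in AAV animal 4 was at 9854, with the others labelled AAV between 500 and 947 (ratio 0.952).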

How the results depend on the processing

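Of 540 refits of the 10 genes, 508 kept their direction and their side of the threshold, 7 lost and 9 gained a call, and 16 changed direction. Unless a reason is given, the cause of a change was not tested. Between KO and WT, DESeq2 called 2 of the 10 genes in place of 1, and leaving out animals in turn gave 1 to 5. Without WT animal 3 there were 5 (Mtor, Tsc2, Tfe3, Mitf and Fnip1). Between AAV and KO the count of 4 became 3 to 5. The pathway lists had 27 calls between KO and WT, which became 17 with the replicate block and 16 without the libraries whose Gaa stood apart (12 to 44 with animals left out). Their 22 calls between AAV and KO became 13 to 29. Their single call between AAV and WT became 3 with DESeq2, 2 with edgeR on total reads, 2 with limma scaled to total reads, 3 with all 12 libraries in 1 fit and 0 without the libraries whose Gaa stood apart (0 to 2 with animals left out). Scaling to total reads took the members whose groups were apart from 6 to 3 between AAV and KO, and from 1 to 0 between AAV and WT.

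Among the 10 genes, values near 0 changed sign. For Rptor between KO and WT the log2 fold change was 0.0378 without the libraries whose Gaa stood apart (-0.0747 to 0.0391 with animals left out). For Fnip1 between AAV and KO it was 0.13 with edgeR on total reads, 0.0768 with limma on total reads and 0.0589 without the Gaa libraries (-0.278 to 0.0589). For Tfeb between AAV and WT these were 0.0681, 0.0729 and 0.0382 (-0.143 to 0.0125), and for Flcn 0.0816 and 0.0631 on total reads. Gaa between AAV and WT, at 0.47 (SE 1.30) in the main result, was -0.39 with DESeq2, -0.34 with edgeR and -0.12 with edgeR on total reads (-0.51 to 1.79).

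With the replicate number as a block, 3062, 2179 and 132 genes were called in place of 4097, 3910 and 193. The correlation of same-numbered animals' deviations ranged from -0.364 to 0.563, which does not settle whether the numbers stand for anything shared. The block changed no call of the 10 genes. Over all genes, AAV against WT gave 935 calls with DESeq2, 892 with all 12 libraries in 1 fit, 10 without both libraries whose Gaa stood apart, and 18 to 442 with 1 animal left out. KO against WT gave 2353 to 7163 and AAV against KO 1961 to 5071. Of the pathway genes named by rule, 6 of 13 calls between KO and WT and 6 of 11 between AAV and KO held in all 18 alternatives.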
